A study of Mus musculus with 6 samples.

Results

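The genes described here are 42 genes of the unfolded protein response and of the integrated stress response, chosen by symbol. They include the sensors of the endoplasmic reticulum (ER), the factors ATF4 and CHOP (gene Ddit3), ER chaperones, and enzymes and transporters of amino acids. All 42 were found on the array among 18193 genes with a probe set of 1 symbol, and they had 102 of the 45037 probe sets kept after controls were left out. Each gene is read at its brightest probe set by mean signal, and all 42 passed the filter on dim probe sets. The cells were cultured dermal fibroblasts at passage 4 from mice of 0 to 2 days labelled as of strain B6. These mice had inherited an X-linked GFP transgene, under a CMV enhancer with the promoter of chicken β-actin, from a father of 129/ICR background and a wild-type BL6 mother, and the donors were heterozygous females. In every group the cells had first been sorted for absence of GFP, so that in female cells with the transgene it lay on the inactive X. GFP-positive and GFP-negative cells had received 4 μM 5-aza-2'-deoxycytidine (decitabine), an inhibitor of DNA methylation, for 48 hours, with 24 hours of recovery. They were then separated by a further sort into cells that had switched GFP on and cells that had not. The free text of the treated samples calls them untreated with the drug, while their titles, sources and treatment fields give the treatment, which was followed. Control cells spent the same time without the drug and were not sorted again. There were 2 arrays in each of the 3 groups, called biological replicates in the labels. For control replicate 2 the labels give mixed sex, so the account of female donors may not hold for all its cells. All cells of a group were measured together, so fewer cells with a transcript and less of it per cell cannot be told apart.

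When misfolded protein builds up in the ER, 3 membrane sensors respond. IRE1 (Ern1) splices the Xbp1 transcript, ATF6 is released as a transcription factor, and PERK (Eif2ak3) phosphorylates the initiation factor eIF2. XBP1 and ATF6 drive ER chaperones and genes of ER-associated degradation. Phosphorylated eIF2 lowers translation in general and raises that of Atf4. ATF4 with its partners of the C/EBP family then induces amino acid genes, Trib3, Chac1 and Ddit3. CHOP, the product of Ddit3, is a late factor of this response and is known for its part in cell death. Other eIF2 kinases respond to amino acid shortage, haem and viral RNA, so ATF4 targets can move without the ER chaperones. Much of this control acts on translation, splicing and protein cleavage, which an expression array does not read.

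Promoter windows of some of the genes are shown first, picked to set both kinds of control side by side. They are not a list of the genes that changed. Hspa5 and Creld2 did not pass the test against control described below. Psat1, Shmt2, Slc3a2, Slc7a5 and Atf5, which passed it in 1 of its forms, are not shown and had no match counted. The windows come from RefSeq on build GRCm38.p6, run 5′ to 3′ and span 250 bases before and 50 after the annotated start. Capitals mark matches to the CARE, the site of ATF4 with C/EBP factors (TGATGNAA), to the ERSE, a site of ATF6 with NF-Y (CCAAT and CCACG with any 9 bases between them), or to the UPRE core (TGACGTGG or TGACGTGA), on either strand. Trib3, a pseudokinase that holds back ATF4 and CHOP, lies on the minus strand at chr2:152344011-152344310.
Trib3: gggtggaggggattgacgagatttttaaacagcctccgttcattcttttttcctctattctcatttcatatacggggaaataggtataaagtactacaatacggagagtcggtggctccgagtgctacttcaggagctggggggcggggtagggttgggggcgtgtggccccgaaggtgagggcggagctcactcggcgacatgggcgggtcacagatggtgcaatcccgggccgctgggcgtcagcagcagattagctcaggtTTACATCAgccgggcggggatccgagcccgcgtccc
Vldlr, a lipoprotein receptor induced by ATF4, has 2 windows. The window with a match is at chr19:27216770-27217069 on the plus strand.
Vldlr: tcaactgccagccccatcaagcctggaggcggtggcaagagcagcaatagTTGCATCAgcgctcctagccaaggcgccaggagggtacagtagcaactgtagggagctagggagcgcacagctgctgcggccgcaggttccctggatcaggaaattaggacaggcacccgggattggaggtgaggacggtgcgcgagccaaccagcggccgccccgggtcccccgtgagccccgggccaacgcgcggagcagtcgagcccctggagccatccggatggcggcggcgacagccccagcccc
Herpud1, a membrane component of ER-associated degradation, has a CARE in its window at chr8:94386179-94386478, plus strand.
Herpud1: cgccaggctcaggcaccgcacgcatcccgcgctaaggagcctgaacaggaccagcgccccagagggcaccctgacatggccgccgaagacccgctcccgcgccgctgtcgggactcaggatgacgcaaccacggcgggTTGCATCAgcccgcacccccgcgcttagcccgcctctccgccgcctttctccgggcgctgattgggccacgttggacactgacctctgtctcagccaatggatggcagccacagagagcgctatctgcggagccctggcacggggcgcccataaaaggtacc
Hspa5 encodes BiP, the main ER chaperone. Its window at chr2:34771840-34772139, plus strand, has an ERSE and a UPRE core.
Hspa5: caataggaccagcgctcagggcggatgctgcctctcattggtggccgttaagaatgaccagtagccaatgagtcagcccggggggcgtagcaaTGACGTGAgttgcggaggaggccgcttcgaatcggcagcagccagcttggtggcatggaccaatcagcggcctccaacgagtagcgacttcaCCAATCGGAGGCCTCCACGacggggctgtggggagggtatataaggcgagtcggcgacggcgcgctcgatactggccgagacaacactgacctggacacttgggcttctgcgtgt
Creld2, an ER protein of the folding machinery, has an ERSE at chr15:88819396-88819695, plus strand.
Creld2: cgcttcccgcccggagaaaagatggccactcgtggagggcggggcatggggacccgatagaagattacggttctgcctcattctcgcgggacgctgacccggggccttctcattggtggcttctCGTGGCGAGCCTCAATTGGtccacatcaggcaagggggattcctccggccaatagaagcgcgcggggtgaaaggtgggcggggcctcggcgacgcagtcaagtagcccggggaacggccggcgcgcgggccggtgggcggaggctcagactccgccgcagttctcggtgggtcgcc
Ddit3 is shown for comparison. None of these motifs occurs in its exact letters in the window at chr10:127290543-127290842, plus strand, which says nothing of sites elsewhere. On the other strand this window has CCAAT and GCACG with 9 bases between them. That is a near match to the ERSE and was not counted.
Ddit3: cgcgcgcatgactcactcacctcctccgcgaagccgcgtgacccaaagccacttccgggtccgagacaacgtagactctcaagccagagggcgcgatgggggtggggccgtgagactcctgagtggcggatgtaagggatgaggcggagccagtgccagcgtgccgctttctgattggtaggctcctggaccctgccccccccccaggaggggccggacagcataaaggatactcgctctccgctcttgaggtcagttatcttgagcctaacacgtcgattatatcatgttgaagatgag

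The CARE and the ERSE were more frequent among the members than over all genes with a window. Windows were found for 37 of the 42 members. A CARE stood in 8 of them (21.6%), against 4.51% of all 27025 genes with a window of 300 bases. Besides Trib3, Vldlr and Herpud1 these were Asns, Atf3, Chac1, Nupr1 and Slc7a11. An ERSE stood in 7 (18.9%), namely Calr, Creld2, Dnajc3, Hsp90b1, Hspa5, Pdia6 and Syvn1, against 0.137% of all genes. Only 37 genes with a window had one, and the 7 members are among them. The UPRE core stood in Hspa5 alone among the members (against 1.22% of all genes). In Trib3 the CARE lies at bases 15 to 22 after the start. In Vldlr it lies at -200 to -193, and in Herpud1 at -112 to -105. A match is a description of the letters and not a site of binding, and the members are partly known for these very elements.

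The arrays with replicate number 1 and those with number 2 differed in every group. With all arrays brought to a common trimmed mean of 500 (2% left out at each end), lower quartiles were 38.7 to 42.6 for number 1 and 19.2 to 22.6 for number 2. For the main values the differences within replicate 1 and within replicate 2 are therefore also given, and calls are given without and with the replicate number as a block. GFP-negative replicate 2 and GFP-positive replicate 2 had been deposited on another scale, with trimmed means of 62.02 and 50.53. Signals are on the scaled linear scale. Differences are log2 differences with their standard error (SE) of signal plus 30.64. This addition makes the change of dim genes look smaller. A difference was called at a limma adjusted p under 0.05 over all 27022 tested probe sets. The labels do not say whether replicates came from separate animals. What the p-values measure is the spread of these arrays, which may be partly technical, and their small number limits every value. All 6 fibroblast markers were above the filter. Their summed signal was 89315 and 73931 in GFP-positive cells, 98881 and 81601 in GFP-negative cells and 126047 and 122018 in control cells. Of the 6 skeletal muscle markers 4 were above the filter, with sums of 13071 and 13144, 13199 and 16666, and 4492 and 9471 in the same groups, nearly all from Acta1. Myog, which defines muscle differentiation, and Myh3 were below the filter. Des was above it, with 224.2 and 390.9, 536.5 and 313.6, and 44.6 and 69.1 in the same groups. For Myod1 and Ckm, also above the filter, treated and control arrays overlapped. Sums of the keratinocyte, melanocyte, endothelial, leukocyte and adipocyte markers lay between 250 and 1957 on every array. The part of these shifts in the differences from control below was not tested.

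Among the members, GFP-positive and GFP-negative cells differed most in Ddit3. Its signal was 5179 and 5536 on the GFP-positive arrays, 2341 and 2532 on the GFP-negative arrays and 3818 and 4318 on the control arrays. The 3 groups did not overlap, and control cells lay between the treated ones. Within the treated cells Ddit3 was 2.18-fold higher with active GFP, a difference of 1.13 ± 0.20, with 1.14 within replicate 1 and 1.12 within replicate 2. By p it ranked the first of all 27022 tested probe sets with both fits, but its limma adjusted p was 1.00, or 0.0681 with the replicate block. It thus did not pass the test. Against control it stood at 0.40 ± 0.20 in GFP-positive cells (0.44 and 0.36 within replicates 1 and 2; adjusted p = 0.802, or 0.1002 with the block). In GFP-negative cells it stood at -0.73 ± 0.20 (-0.70 and -0.76; adjusted p = 0.553, or 0.00938 with the block). Ddit3 was the only member with both treated groups on opposite sides of both control arrays, a pattern of 0.714% of all tested probe sets (0.389% in the direction of Ddit3). The members were chosen with these results known, so this rank is a description.

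The second Ddit3 probe set does not show the pattern. Its signal was 393.7 and 90.0 on the GFP-positive arrays, 353.7 and 150.0 on the GFP-negative arrays and 389.2 and 162.5 on the control arrays. Those values followed the replicate number rather than the group. On it the difference between GFP-positive and GFP-negative cells was -0.22 ± 0.69 (0.14 and -0.58), and with the mean of both probe sets Ddit3 stood at 0.45. The result for Ddit3 therefore rests on 1 probe set, the bright one.

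**Figure D1:**
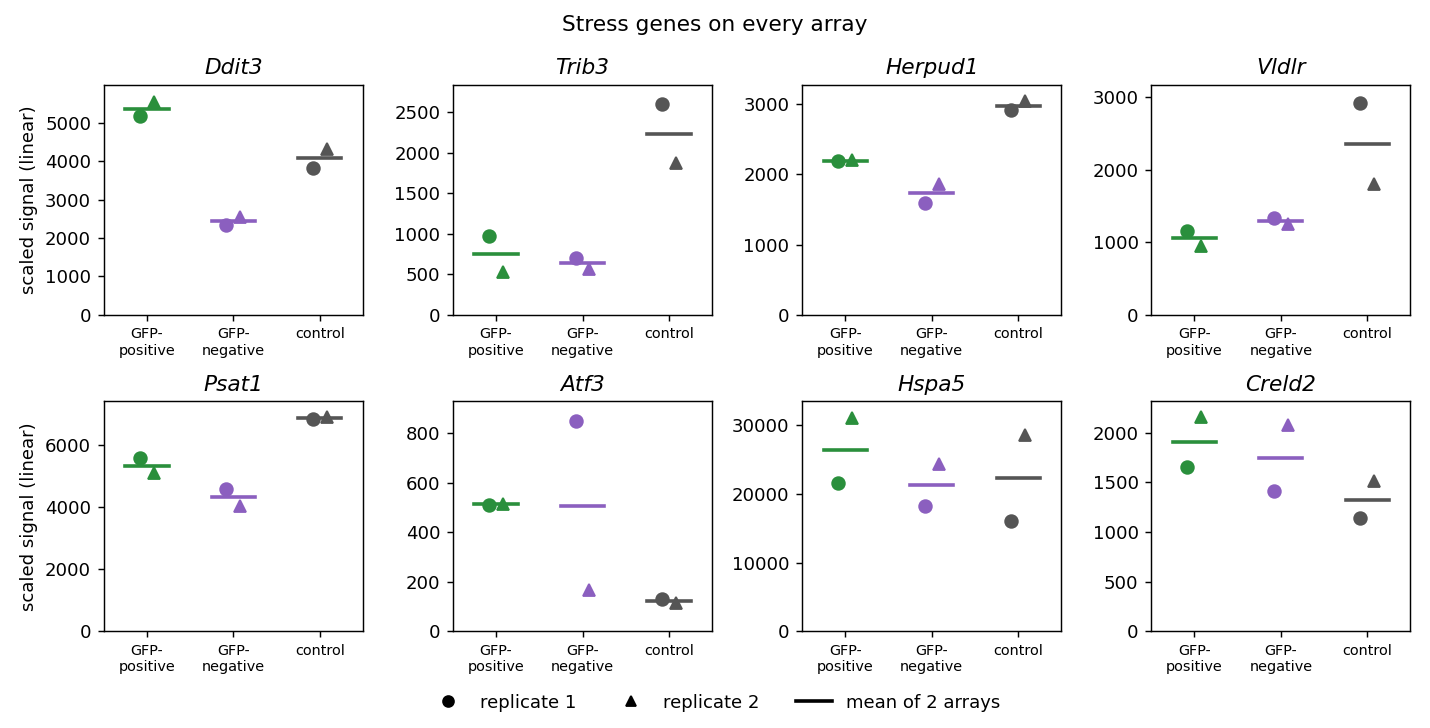
Scaled signal (linear, from 0) of 8 stress genes on every array, with circles for replicate 1, triangles for replicate 2 and a line for the mean of 2 arrays. Ddit3 is highest in GFP-positive cells (5179 and 5536) and lowest in GFP-negative cells (2341 and 2532), while Trib3, Herpud1, Vldlr and Psat1 are lower in both treated groups than in control.

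No other member came near the test between GFP-positive and GFP-negative cells. Limma called 0 of the 42 members, and 0% of all tested probe sets, without and with the block. At an unadjusted p under 0.05 there was 1 member, Ddit3, against 0.625% of all probe sets. The median difference was -0.02 (0.10 within replicate 1 and -0.06 within replicate 2), beside -0.0038 for all tested probe sets, with 20 members higher and 22 lower. Ddit3 was also the only member at least 0.5 apart in the same direction within both replicate numbers, as were 1.83% of all probe sets upwards and 2.38% downwards. Above 0 within both replicate numbers were 13 members (26.6% of all probe sets), and below 0 were 8 (27.4%). The groups did not overlap for 6 members with higher values (10.6% of all probe sets) and for 5 with lower ones (10%).

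Neither Atf4 nor its other targets passed the test between the sorted fractions. Atf4 had 9958 and 8712 in GFP-positive cells, 9184 and 7456 in GFP-negative cells and 8626 and 10037 in control cells, with overlap of all groups. Its difference between GFP-positive and GFP-negative cells was 0.17 ± 0.22. Herpud1 stood at 0.34 ± 0.21 (0.45 and 0.24), Psat1 at 0.31 ± 0.20 (0.28 and 0.33) and Hspa5 at 0.30 ± 0.33 (0.24 and 0.36). The subunit that directs the phosphatase of eIF2, Ppp1r15a (GADD34), stood at 0.24 ± 0.23 (0.19 and 0.29). All 4 were on the same side within both replicate numbers, with limma adjusted p = 1.00 each. Trib3 stood at 0.17 ± 0.34, Asns at 0.09 ± 0.21, Chac1 at -0.12 ± 0.30 and Xbp1 at -0.13 ± 0.21. Each of these turned sign between the replicate numbers. Among those on the lower side were Vldlr (-0.29 ± 0.28), Edem1 (-0.29 ± 0.25), Cebpg (-0.24 ± 0.24), the PERK gene Eif2ak3 (-0.21 ± 0.23) and the translation repressor Eif4ebp1 (-0.20 ± 0.22). Edem1, a lectin of ER-associated degradation, was the second member besides Ddit3 whose treated groups differed from control in opposite directions within both replicate numbers, 2 of 42 against 4.04% of all probe sets. Syvn1, a ubiquitin ligase of the ER, was at -0.38 ± 0.27 (-0.01 within replicate 1 and -0.75 within replicate 2).

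Ddit4 and Sesn2, which restrain the growth kinase complex mTORC1, split by replicate. Ddit4 had 4258 and 816.3 on the GFP-positive arrays, 3636 and 2886 on the GFP-negative arrays and 2951.5 and 1908.5 on the control arrays. Sesn2 had 1325 and 216.7, 852.1 and 646.6, and 1109 and 324.4 on the same arrays. Both were low on GFP-positive replicate 2. Between GFP-positive and GFP-negative cells Ddit4 was at 0.23 within replicate 1 and -1.78 within replicate 2, and Sesn2 at 0.62 and -1.45. Their fitted differences from control, with SE of 0.65 and 0.80, lay between -0.34 and 0.44.

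**Figure D2:**
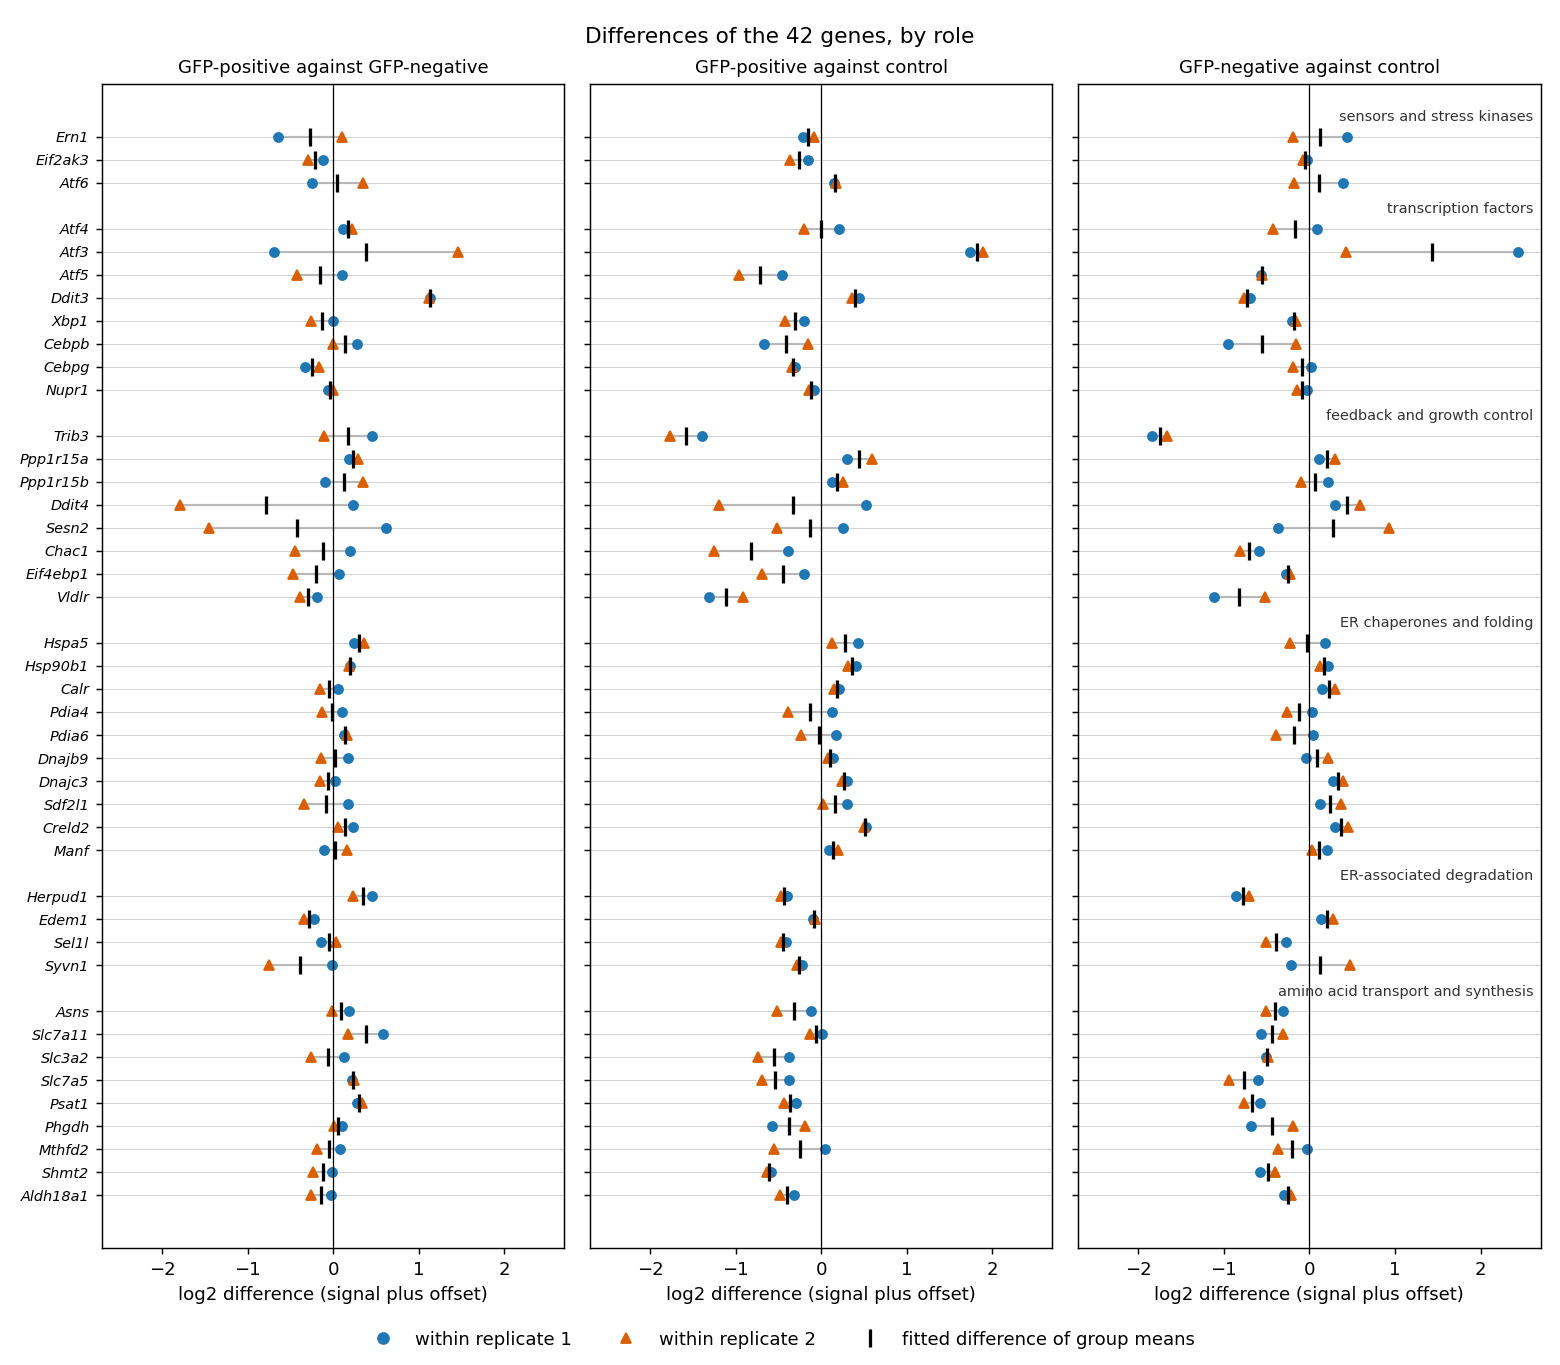
Log2 differences of all 42 genes in the 3 comparisons, ordered by role, with circles within replicate 1, triangles within replicate 2 and black ticks for the fitted difference of group means. In GFP-positive against GFP-negative cells only Ddit3 is beyond 0.5 within both replicate numbers, and all 9 genes of amino acid transport and synthesis have a fitted difference below 0 against control in both treated groups.

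Of the 8 genes of feedback and growth control, 6 were below control in GFP-positive cells (median -0.39) and 4 in GFP-negative cells (median -0.09). None was called without the block. With it 3 fell in GFP-positive cells (Trib3, Vldlr and Chac1), against 3.06% of all probe sets. In GFP-negative cells 2 fell (Trib3 and Vldlr), against 1.68%. Trib3 had 975.1 and 526.4 in GFP-positive cells, 705.1 and 571.6 in GFP-negative cells and 2601 and 1872 in control cells. No treated array reached a control array. The difference from control was -1.58 ± 0.34 in GFP-positive cells (-1.39 and -1.77; limma adjusted p = 0.216, or 0.000489 with the block). In GFP-negative cells it was -1.75 ± 0.34 (-1.84 and -1.66; 0.253, or 0.000394 with the block). Its other probe set stood at -0.77 and -0.99 in these comparisons, with adjusted p = 0.0251 and 0.00955 with the block. The brighter Trib3 probe set, like those used for Psat1, Slc3a2 and Atf5, is an _a_at, which can bind several transcripts of the same gene. The other Trib3 probe set, like those used for Vldlr and Shmt2, is an _x_at, which can also bind transcripts of other genes. Both types and the _s_at type are called probe sets that can bind related transcripts below. The 2 treated comparisons share their control arrays, so their likeness is not independent. The drug and the further sort, which control cells did not have, cannot be told apart in them.

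Vldlr was also lower in both treated groups than in control. It had 1162 and 945.0 in GFP-positive cells, 1333 and 1246 in GFP-negative cells and 2920.0 and 1801 in control cells, and treated and control arrays did not overlap. The differences from control were -1.11 ± 0.28 (-1.31 and -0.91; adjusted p = 0.316, or 0.00382 with the block) and -0.82 ± 0.28 (-1.11 and -0.52; 0.759, or 0.0272 with the block). Of its 4 other tested probe sets all were below control in GFP-positive cells and 3 in GFP-negative cells. Chac1, an enzyme that degrades glutathione, had 1391 and 760.9, 1206 and 1045, and 1833 and 1852 in the same groups. It stood at -0.82 ± 0.30 in GFP-positive cells (-0.39 and -1.25; 0.589, or 0.0381 with the block) and at -0.70 ± 0.30 in GFP-negative cells (-0.59 and -0.81; 0.989, or 0.0982 with the block). In GFP-positive cells it was at -0.40 with their replicate 2 left out and at -1.24 with their replicate 1 left out. Vldlr was at -0.47 in GFP-negative cells without control replicate 1. Ppp1r15a went the other way, at 0.45 ± 0.23 (0.30 and 0.59) and 0.21 ± 0.23 (0.12 and 0.30), and did not pass the test with either fit. Eif4ebp1 was at -0.45 ± 0.22 in GFP-positive cells (-0.21 and -0.69).

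Among the transcription factors, Atf3 was on the higher side and Atf5 on the lower. Atf3, an early factor of many stress responses, had 512.2 and 514.5 in GFP-positive cells, 848.2 and 167.7 in GFP-negative cells and 131.8 and 116.3 in control cells. All treated arrays were above the control arrays, but the GFP-negative arrays lay far apart. It stood at 1.82 ± 0.62 in GFP-positive cells (1.74 and 1.89; adjusted p = 0.524, or 0.0324 with the block) and at 1.43 ± 0.62 in GFP-negative cells (2.44 and 0.43; 0.984, or 0.113 with the block). Atf5, like ATF4 a factor whose translation rises under stress, had 5052 and 2404, 4699.8 and 3219.9, and 6942 and 4726 in the same groups. The GFP-positive and control arrays overlapped. It was at -0.71 ± 0.38 in GFP-positive cells (-0.46 and -0.97; 0.833, or 0.0203 with the block), and -0.56 and -0.55 within the replicates in GFP-negative cells. In GFP-positive cells Atf5 moved to -0.18 when their replicate 2 was left out, to -1.24 when their replicate 1 was, and to -0.44 when control replicate 1 was. Cebpb, an ATF4 partner, was at -0.55 ± 0.26 in GFP-negative cells, mostly from replicate 1 (-0.95, against -0.15 in replicate 2). Its other probe set, of the _a_at type, stood at -0.95 ± 0.24 there (-1.25 and -0.66; adjusted p = 0.515, or 0.0165 with the block). Between GFP-positive and GFP-negative cells that probe set was at 0.59 ± 0.24 (0.82 and 0.36; adjusted p = 0.781 with the block). Atf4 itself was at 0.00 ± 0.22 in GFP-positive and -0.17 ± 0.22 in GFP-negative cells. Xbp1, read here without its splicing, was at -0.31 ± 0.21 and -0.18 ± 0.21 (mean signal 7251.7). Its next brightest probe set (6091.6) was at -0.24 and -0.23, and a dimmer one (2475.7) at -0.15 and 0.0024. With probe sets that can bind related transcripts left out Xbp1 was at 0.24 and 0.0833, on its dimmest probe set (367.9). Nupr1, a small chromatin protein induced by stress, had signals of 6226 to 11721 that followed the replicate number in every group.

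All 9 genes of amino acid transport and synthesis had a fitted difference below 0 from control in both treated groups. None was called without the block. With it 2 of 9 fell in GFP-positive cells (Shmt2 and Slc3a2), against 3.06% of all probe sets. In GFP-negative cells 2 fell (Psat1 and Slc7a5), against 1.68%. In GFP-positive cells the median was -0.38 (-0.32 within replicate 1 and -0.52 within replicate 2) and in GFP-negative cells -0.44 (-0.57 and -0.40), beside medians of 0.04 over all probe sets in both comparisons. Within both replicate numbers 7 of 9 were below control in GFP-positive cells (28.5% of all probe sets) and 9 of 9 in GFP-negative cells (26.8%). Psat1, an enzyme of serine synthesis, had 5578 and 5099 in GFP-positive cells, 4586 and 4043 in GFP-negative cells and 6846 and 6912 in control cells. It stood at -0.37 ± 0.20 in GFP-positive cells (-0.29 and -0.44; limma adjusted p = 0.835, or 0.121 with the block) and at -0.67 ± 0.20 in GFP-negative cells (-0.57 and -0.77; 0.622, or 0.0139 with the block). Its other probe set was at -0.35 (0.05 and -0.74 within the replicates) and -0.34 (-0.15 and -0.53), and there did not pass the test with the block (adjusted p = 0.295 and 0.377).

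Shmt2, which feeds serine into mitochondrial one-carbon metabolism, had 2760.1 and 2515 in GFP-positive cells, 2786 and 2959 in GFP-negative cells and 4153.5 and 3917 in control cells. The treated and control arrays did not overlap. The differences were -0.61 ± 0.20 (-0.58 and -0.63; adjusted p = 0.498, or 0.0227 with the block) and -0.49 ± 0.20 (-0.57 and -0.40; 0.942, or 0.0826 with the block). Slc3a2, the heavy chain of several amino acid exchangers, had 4370.1 and 4222, 3989 and 5047, and 5663 and 7049 in the same groups. It stood at -0.55 ± 0.22 in GFP-positive cells (-0.37 and -0.74; 0.660, or 0.0404 with the block) and at -0.49 ± 0.22 in GFP-negative cells (-0.50 and -0.48; 1.00, or 0.0899 with the block). Slc7a5, the light chain that pairs with it for large neutral amino acids, had 2779.8 and 1301, 2374 and 1096, and 3609.9 and 2129.6. Its GFP-negative and control arrays overlapped, yet it was lower within each replicate number (-0.60 and -0.94), with a difference of -0.77 ± 0.48 (1.00, or 0.0177 with the block). Leaving out replicate 2 of the GFP-negative cells gave -0.22, leaving out their replicate 1 gave -1.32, and leaving out control replicate 1 gave -0.39. Asns, the asparagine synthetase that is a standard readout of ATF4, was at -0.32 ± 0.21 in GFP-positive and -0.41 ± 0.21 in GFP-negative cells and did not pass the test with either fit. The cystine transporter Slc7a11 was dim, with 149.8 and 134.6 in GFP-positive cells, 90.2 and 115.3 in GFP-negative cells and 148.8 and 150.0 in control cells. The other members here were Phgdh of serine synthesis, Mthfd2 of mitochondrial folate metabolism and Aldh18a1 of proline synthesis. They lay between -0.40 and -0.20 in both comparisons apart from Phgdh, which was at -0.43 in GFP-negative cells.

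ER chaperones did not share this direction. Of the 10 members, 8 had a difference above 0 from control in GFP-positive cells, with a median of 0.17, and 7 in GFP-negative cells, with a median of 0.15. Of all 27022 tested probe sets, 14510 and 14667 were above 0 in these comparisons, with medians of 0.04. None of the 10 was called with either fit. At an unadjusted limma p under 0.05 there were also 0 of 10. Hspa5 had 21665 and 31147 in GFP-positive cells, 18282 and 24316 in GFP-negative cells and 16111 and 28542 in control cells, with overlap of all groups. It stood at 0.28 ± 0.33 in GFP-positive and -0.02 ± 0.33 in GFP-negative cells, with adjusted p of 0.997 and 1.00. Creld2 had 1660.2 and 2155 in GFP-positive cells, 1410.5 and 2075 in GFP-negative cells and 1145 and 1512 in control cells. Its difference of 0.51 in GFP-positive cells (0.52 and 0.50 within the replicates; adjusted p = 0.0684 with the block) was the largest in this group. The lectin chaperone Calr, the ER form of HSP90 (Hsp90b1), the co-chaperones Dnajc3 and Dnajb9, Sdf2l1, Manf and the disulfide isomerases Pdia4 and Pdia6 lay between -0.17 and 0.36 in both comparisons.

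All 4 genes of ER-associated degradation were below control within both replicate numbers in GFP-positive cells (against 28.5% of all probe sets), with a median of -0.34. In GFP-negative cells 2 of these genes were above and 2 below control (median -0.13). None was called without the block, and with it Herpud1 alone fell in GFP-negative cells (against 1.68% of all probe sets). Herpud1 had 2196.5 and 2198.7 in GFP-positive cells, 1596 and 1861.5 in GFP-negative cells and 2913 and 3046 in control cells. All treated arrays were below the control arrays. Its differences were -0.43 ± 0.21 in GFP-positive cells (-0.40 and -0.46; adjusted p = 0.765, or 0.103 with the block) and -0.78 ± 0.21 in GFP-negative cells (-0.86 and -0.70; 0.534, or 0.0115 with the block). Its other probe set stood at -0.45 and -0.63 (adjusted p = 0.0952 and 0.0358 with the block). Sel1l, which pairs with Syvn1, was below control within both replicates in both groups. Edem1 was at -0.08 in GFP-positive and 0.21 in GFP-negative cells, and Syvn1 at -0.25 and 0.13. The sensors Ern1, Eif2ak3 and Atf6 lay between -0.26 and 0.16 in both comparisons, and the constitutive phosphatase subunit Ppp1r15b at 0.19 and 0.06.

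Counted over all 42 members, limma called 0 against control in either treated group, where it called 0.122% of all probe sets in GFP-positive and 0.0296% in GFP-negative cells. At an unadjusted p under 0.05, 1 member was higher and 5 were lower in GFP-positive cells, against 3.6% and 3.43% of all probe sets (7.04% in either direction). In GFP-negative cells 1 was higher and 6 were lower, against 2.76% and 2.31% (5.07%). With the replicate block 7 members passed in GFP-positive cells, beside 6.21% of all probe sets. Atf3 rose (1 of 42, against 3.15%), and Trib3, Vldlr, Shmt2, Chac1, Slc3a2 and Atf5 fell (6 of 42, against 3.06%). With block and quantile normalization Atf3 and Chac1 no longer passed (adjusted p = 0.0533 and 0.0509). In GFP-negative cells 6 passed, beside 3.57% of all probe sets. None of them was higher (against 1.9%). The 6 that fell (against 1.68%) were Trib3, Herpud1, Ddit3, Psat1, Vldlr and Slc7a5. Without the mean-variance trend the blocked fit called 0 members in both. The median of all members was -0.20 in GFP-positive cells (-0.09 and -0.26 within replicates 1 and 2) and -0.14 in GFP-negative cells (-0.04 and -0.19). At least 0.5 apart within both replicate numbers were 2 members upwards (Atf3 and Creld2) and 3 downwards (Trib3, Vldlr and Shmt2) in GFP-positive cells, against 6.85% and 5.78% of all probe sets. In GFP-negative cells it was 0 upwards and 8 downwards (Atf5, Ddit3, Trib3, Chac1, Vldlr, Herpud1, Slc7a5 and Psat1), against 6.38% and 4.35%. Below control within both replicate numbers were 22 members in GFP-positive cells (against 28.5%) and 21 in GFP-negative cells (against 26.8%). Above it were 13 (against 34.6%) and 10 (against 33.7%). The GFP-positive and control arrays did not overlap for 4 members on the higher side (17.3%) and 14 on the lower side (14.9%). For the GFP-negative and control arrays it was 2 (15.1%) and 15 (13.5%).

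By median, the members with a CARE lay below control and those with an ERSE above it. Of the 8 with a CARE, 7 were lower than control in each treated group and Atf3 was higher. Their medians were -0.37 in GFP-positive and -0.57 in GFP-negative cells. The 7 with an ERSE had medians of 0.27 and 0.17, with 5 of 7 above control in each group. Of all 27022 tested probe sets, 14510 (GFP-positive) and 14667 (GFP-negative) were above control, with medians of 0.04. All 42 members had medians of -0.20 and -0.14, so values below control were not particular to a CARE. Psat1, Shmt2, Slc3a2, Slc7a5 and Atf5, which fell with the block in a treated group, had no CARE counted here. The split is a description of few genes, and no test of the difference between the sets was made. Only the exact letters given above were searched. Herpud1 counts here by its CARE alone. Its window also holds ATTGGGCCACG, which joins CCACG to CCAAT on the other strand at a spacing that was not searched. Between GFP-positive and GFP-negative cells the medians were 0.13 and 0.14.

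Other genes of the pathway were read from a further list. Of 71 listed genes 67 were on the array and all of those passed the filter. None was called between any groups by limma. Between GFP-positive and GFP-negative cells the median of the 67 was 0.02. Among 18 other ATF4 targets the median was -0.23 in both treated groups against control, with 13 and 11 lower. With the block 4 of them fell in GFP-positive cells (3.06% of all probe sets) and 2 in GFP-negative cells (1.68%). Pck2, the mitochondrial enzyme that makes phosphoenolpyruvate, averaged 1736 in GFP-positive, 2029 in GFP-negative and 4945 in control cells. It stood at -1.53 ± 0.27 (-1.30 and -1.76; adjusted p = 0.1298, or 0.000209 with the block) and -1.27 ± 0.27 (-1.25 and -1.29; 0.323, or 0.000983 with the block). Cth, which makes cysteine, averaged 896.5, 1097 and 2211 in those groups, with differences of -1.25 ± 0.26 and -0.97 ± 0.26 (0.000954 and 0.00692 with the block). The glutamine carrier Slc38a2 (-0.51 ± 0.19) and the transaminase Gpt2 (-0.77 ± 0.29) fell in GFP-positive cells with the block only (adjusted p = 0.0330 and 0.0497).

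Charging enzymes and other ER genes held few calls. Among 13 aminoacyl-tRNA synthetases 9 were lower than control in each treated group, with medians of -0.20 and -0.15 and 0 called with either fit. Among 15 other chaperone and folding genes the medians were 0.08 and 0.03. The oxidase Ero1b rose in GFP-positive cells with the block (1.14 ± 0.37, adjusted p = 0.0483) and stood at 1.09 ± 0.37 in GFP-negative cells (adjusted p = 0.0799). Its relative Ero1a fell in GFP-negative cells with the block (-0.60 ± 0.25, adjusted p = 0.0307) and stood at -0.38 ± 0.25 in GFP-positive cells (adjusted p = 0.1255). The 9 other genes of ER-associated degradation and the 12 other sensors and ER-resident factors had medians between -0.11 and 0.08 against control.

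**Figure D3:**
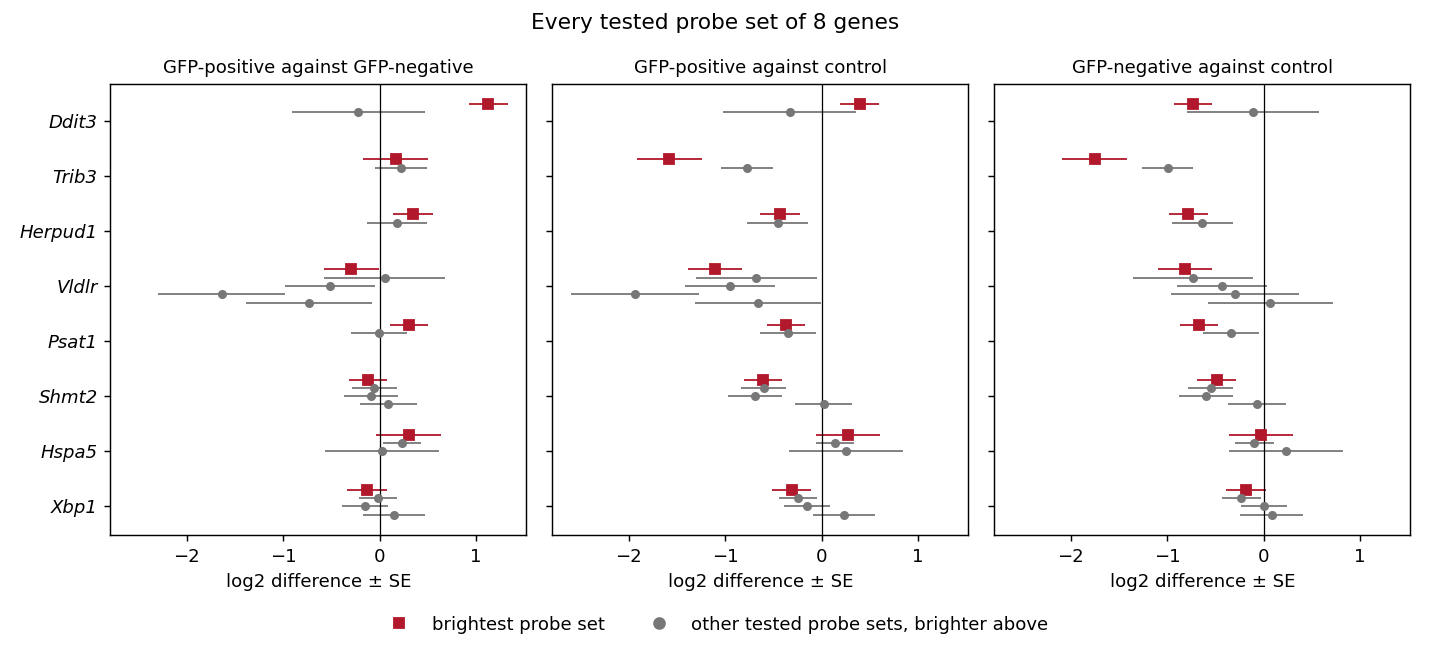
Log2 differences ± SE on every tested probe set of 8 genes, with squares for the brightest probe set and grey circles for the others. Both Trib3 and both Herpud1 probe sets lie below 0 against control in both treated groups, whereas the dim Ddit3 probe set (-0.22 ± 0.69) does not show the 1.13 of the bright one in GFP-positive against GFP-negative cells.

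The sign of a member was also read on its other probe sets. For 29 members 54 further probe sets were tested. They had the sign of the brightest one in 45 of 54 for GFP-positive against control and 42 of 54 for GFP-negative against control. In GFP-positive against GFP-negative cells it was 29 of 54.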

How the data were processed

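Total RNA of 6 fibroblast cultures was measured on Affymetrix mouse expression arrays. The deposited values were 1 linear signal intensity per probe set, made by the authors with MAS5 per the submitters' processing notes. The sources used here do not give its settings. Of 45101 probe sets 64 controls were left out, 34945 had 1 gene symbol, 932 several and 9160 none here. All arrays were brought to a trimmed mean of 500 (2% at each end), and log2 was taken after adding 30.64, the arrays' median lower quartile. The 27022 probe sets with a mean signal of at least 67.71 (40th percentile) were tested in R 4.3.3 with limma 3.58.1: a two-sided moderated test of group means from 1 fit of the 6 arrays, with eBayes using the intensity trend, 3 residual degrees of freedom, Benjamini-Hochberg adjustment. The alternative with a replicate block has 2. The fits were tested on simulated data. Deviations from group means correlated at 0.506 to 0.556 between same-numbered arrays of different groups over probe sets; the labels do not say what a number shares.

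Members, gene lists and tests were chosen with earlier results of these data known, so no pattern among them counts as independent support. Statistics are given, per comparison, for the 12 members of smallest p and 8 fixed ones (Ddit3, Atf4, Hspa5, Xbp1, Trib3, Asns, Chac1, Ppp1r15a), and values for the others. Other pathway genes are named where called with a fit, at most 6 per comparison. Sequences are RefSeq's. The alternatives were other normalizations, offsets, filters and thresholds, no trend, the block, only the groups compared, other probe sets, and leaving out arrays.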

Additional observations from a re-analysis of the deposited data

Results flagged for a closer look

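Ddit3 was on opposite sides of control in the sorted fractions. It stood at 0.40 in GFP-positive cells and at -0.73 in GFP-negative cells, and every array of each treated group lay beyond both control arrays. The direct difference between the fractions, 1.13 ± 0.20, had a limma adjusted p of 1.00, or 0.0681 with the replicate block, so it did not pass the test. The dim second probe set did not show it (-0.22 ± 0.69).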

How the results depend on the processing

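Over 49 differences of named genes, 975 of 1017 recomputed values kept direction and side of the threshold, 24 passed only with the replicate block (13 as such, 11 with quantile normalization) and 18 reversed; the cause was not tested. The members' median for GFP-positive against GFP-negative was 0.10 without both rescaled arrays. For GFP-positive against control the 33 calls became 1679 with the replicate block, 1625 with block and quantile normalization, 8 with block and no trend, 0 with no trend, 20 without probe sets that can bind related transcripts (fewer were tested), 78 at a threshold of 0.10, 62 without both rescaled arrays and 0 to 35 without 1 array. Member calls became 7 with the block and 5 with block and quantile normalization, and members at least 0.5 apart became 3 without related-transcript probe sets. For GFP-negative against control the 8 calls became 966, 920, 0, 0 and 3 under the same first 5 settings, 16 with median centring, 3 each with the smaller offset, the stricter filter and only the groups compared, 25 at 0.10, 49 without both rescaled arrays and 0 to 6 without 1 array. Member calls became 6 with the block, with or without quantile normalization, and members at least 0.5 apart became 4 without related-transcript probe sets and 5 with the mean of probe sets. The labels do not say what a replicate number shares.

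Reversals for GFP-positive against GFP-negative without both rescaled arrays were Ddit4 at 0.23, Eif4ebp1 at 0.066, Xbp1 at 0.0035 and Chac1 at 0.20. Without related-transcript probe sets Eif4ebp1 was at 0.0165 and Xbp1 at 0.15 there, at 0.24 in GFP-positive and 0.0833 in GFP-negative cells against control. For Xbp1 these are the values of its dimmest probe set. Leaving out 1 array moved GFP-positive against GFP-negative between -1.95 and 0.39 for Ddit4, -0.26 and 0.60 for Trib3 and -0.54 and 0.30 for Chac1. It moved GFP-positive against control between -0.11 and 0.11 for Atf4 and -0.14 and 0.69 for Hspa5, and GFP-negative against control between -0.44 and 0.39 for Hspa5. Atf4 was at -0.04 in GFP-positive cells with median centring, and Hspa5 at 0.0364 in GFP-negative cells with the mean of probe sets.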
